A study of Mus musculus with 21 samples.

Results

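Marker genes of hippocampal and thalamic neurons were followed in the RNA of sorted cortical nuclei, as a measure of how much of the neighbouring regions each dissected piece held. The genes were chosen by symbol from the mouse table, and all 10 of them (Prox1, C1ql2, Lct, Dsp, Fibcd1, Wfs1, Zbtb20, Tcf7l2, Prkcd and Rora) were found among its 39008 features. There were 9 mouse libraries, made by polyA RNA sequencing of NeuN-positive nuclei sorted from 200 mg of cortex of mice on a C57BL/6J background. They comprised 3 libraries of wild-type mice (WT), 3 of heterozygous Scn2a+/- mice (Het) and 3 of Scn2a+/- mice injected with AAV-sadCas9-VP64 and rAAV-Scn2a-sgRNA (Het CRISPRa), a virus pair that directs a transcriptional activator to Scn2a, a neuronal sodium channel gene. Per the labels' protocols, 500 nL of virus went into the medial prefrontal cortex and the mice were used 4 weeks later. A treatment is named for Het CRISPRa only. Whether WT or Het mice were injected, the age and sex of the mice, the date of dissection and the share of sorted nuclei that the virus had reached are not given in the sources used here.

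The hippocampus and thalamus lie directly beneath and beside the cortical sheet, and a dissected block of cortex can carry some of either. Granule cells of the dentate gyrus are the input neurons of the hippocampus, and pyramidal cells of its CA fields carry the output. Thalamic relay neurons send sensory and motor signals up to the cortex. Few of the 10 genes belong to these cells alone. Prox1 is also made by cortical interneurons from the caudal ganglionic eminence, Zbtb20 by astrocytes, Wfs1 by superficial cortical neurons, Tcf7l2 by young oligodendrocytes and Rora by cortical layer 4 neurons.

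Levels are reads of a gene per 1e+06 reads of the library (CPM), so that a level of one gene can be set against the same gene in another library but not against another gene. The estimated depth was 15.5 to 20.1 M reads per library (M, 1e+06), and at that depth 3 reads correspond to 0.149 to 0.193 CPM. Differences between groups are differences of log2(CPM + 0.5) with the standard error (SE) of a limma fit over all 9 libraries, with Benjamini-Hochberg adjustment of p over all 18967 genes tested. The scale understates differences of genes at low CPM. The labels number the libraries of a group but do not say that each is a separate mouse, so a p-value reflects only the spread among the libraries, some of which may be technical. In bulk RNA, fewer nuclei of a type and less RNA per nucleus cannot be told apart.

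The labelled identity of the nuclei was checked against neuronal and glial genes. Rbfox3, which encodes NeuN, was at 260.3 to 358 CPM and the glutamate transporter gene Slc17a7 at 895 to 1066 CPM. These 2 genes do not tell cortical nuclei from hippocampal ones. The summed level of 7 astrocyte genes was 17.5 to 21.99 CPM and that of 5 oligodendrocyte precursor genes 1.0 to 4.7 CPM. The sadCas9Vp64 transgene was at 4.09 to 7.12 CPM in Het CRISPRa and at 0 in the other 6 libraries, and Scn2a itself was at 229.5 to 266.0 CPM in WT, 203 to 260.3 CPM in Het and 258 to 291 CPM in Het CRISPRa. The number of features above 0 was 28109 to 28272 in WT, 25410 to 25801 in Het and 26118 to 28228 in Het CRISPRa. All Het libraries thus lay below the others, while Het CRISPRa overlapped WT. The part of this number in the values below was not tested. The library of Het replicate 1 stood apart, at -53.1 on the first principal component where the others lay between -20.3 and 35.5, with 1.88% of its reads on mitochondrially encoded genes against 0.733 to 1.41% in the others. Het replicate 1 lay below the median of the 9 libraries in all 10 marker genes, and the part of its mitochondrial share in that was not tested. The share of all genes below their median in Het replicate 1 was not computed.

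The promoters of 3 of the genes are shown because the results turn on them. C1ql2 and Dsp were the only members whose WT libraries all lay above all 6 Scn2a+/- libraries, and Prkcd had the widest spread between libraries. The sequences are the 250 bases before the RefSeq start on the GRCm38.p6 build, 5′ to 3′ on the gene's strand, at chr1:120340332-120340581 (plus strand) for C1ql2, chr13:38151044-38151293 (plus strand) for Dsp and chr14:30626209-30626458 (minus strand) for the first of the listed starts of Prkcd. Capitals mark a match to the core letters CTTTGA, read on either strand, that proteins of the TCF/LEF family such as Tcf7l2 are known to bind.
C1ql2: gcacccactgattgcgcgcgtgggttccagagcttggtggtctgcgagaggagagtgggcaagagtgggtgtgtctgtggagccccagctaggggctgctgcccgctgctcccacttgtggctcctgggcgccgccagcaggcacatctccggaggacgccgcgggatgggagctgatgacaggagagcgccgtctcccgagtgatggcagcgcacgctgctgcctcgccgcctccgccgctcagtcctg
Dsp: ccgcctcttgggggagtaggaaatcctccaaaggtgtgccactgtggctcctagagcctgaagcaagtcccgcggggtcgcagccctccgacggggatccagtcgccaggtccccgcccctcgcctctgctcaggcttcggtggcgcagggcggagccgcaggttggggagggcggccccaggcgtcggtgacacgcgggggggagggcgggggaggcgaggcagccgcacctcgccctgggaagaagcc
Prkcd: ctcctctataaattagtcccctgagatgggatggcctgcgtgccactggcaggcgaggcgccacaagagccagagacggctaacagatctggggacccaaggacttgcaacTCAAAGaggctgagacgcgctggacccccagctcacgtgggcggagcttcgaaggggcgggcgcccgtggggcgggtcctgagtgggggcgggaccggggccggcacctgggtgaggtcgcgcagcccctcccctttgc
GC content was 68.8% in the C1ql2 window, 72.4% in that of Dsp and 67.6% in that of Prkcd, against a median of 52.4% over 32851 starts in the table. The core letters CTTTGA were in 13.8% of windows of this length over all starts, and in 1 of the 13 starts listed for the 10 genes, the Prkcd start shown. The letters AGGTCA, the core of the sites that Rora is known to bind, were in 14% of all windows and in 0 of the 13. A match is a description of the letters and not a measured site.

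Dentate granule cell genes came first. C1ql2, a secreted C1q-like protein that organises synapses of the granule cells' axons, was at 10.1, 11.9 and 10.4 CPM in WT replicates 1 to 3, at 7.0, 4.78 and 8.56 CPM in Het and at 7.24, 6.08 and 5.02 CPM in Het CRISPRa. Every WT library lay above every Scn2a+/- library, while Het and Het CRISPRa overlapped. Between 79 and 234 reads stood behind these values. The group means were 10.8 ± 0.956 CPM in WT, 6.78 ± 1.9 CPM in Het and 6.11 ± 1.11 CPM in Het CRISPRa (SD, n = 3 each).

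Dsp, the gene of the desmosome protein desmoplakin and in mouse brain a granule cell marker, gave 5.31, 7.96 and 5.40 CPM in WT, 2.90, 2.24 and 4.68 CPM in Het and 4.83, 3.47 and 4.74 CPM in Het CRISPRa. Here too the lowest WT library lay above the highest of the other 6. Its reads were few, 37 to 157 per library.

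Prox1, the transcription factor gene that keeps granule cell identity, was at 18.5, 16.8 and 16.9 CPM in WT, 9.72, 8.72 and 19.8 CPM in Het and 13.4, 12.4 and 14.3 CPM in Het CRISPRa. Het spanned both extremes of the series, with replicate 2 the lowest library and replicate 3 the highest, so that the SD of Het was 6.13 CPM against 0.935 CPM in WT. Lct, the lactase gene, whose transcript marks the dentate gyrus in mouse, was at 7.04, 6.94 and 6.18 CPM in WT, 4.45, 5.81 and 8.46 CPM in Het and 6.03, 3.60 and 3.68 CPM in Het CRISPRa. All 3 Het CRISPRa libraries lay below all 3 WT libraries, and Het overlapped both groups.

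Prox1 also marks interneurons, and their genes were read beside it. Vip ran from 4.84 CPM in Het CRISPRa replicate 2 to 19.0 CPM in WT replicate 1, and Adarb2, a marker of the same interneurons, from 32.5 to 53.6 CPM in the same 2 libraries. In Het replicates 1 and 2, where Prox1 was lowest, Adarb2 was at 37.6 and 35.0 CPM, and in Het replicate 3, where it was highest, at 51.8 CPM. The summed level of the 7 interneuron genes was 422 to 489.9 CPM with its lowest value in Het replicate 3, and Sncg was listed at 0 in 3 libraries. Most of that sum came from Lamp5 (111 to 200 CPM) and Cnr1 (135 to 217 CPM), and Lamp5 was lowest in Het replicate 3. Vip, Htr3a and Reln were higher in Het replicate 3 than in Het replicates 1 and 2, as Adarb2 was. Lamp5 and Sncg were lower there, and Cnr1 lay between. The part of these cells in the Prox1 values was not tested.

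Genes of hippocampal pyramidal cells formed the second group. Fibcd1, a membrane receptor gene of CA1 neurons, was the steadiest of the hippocampal genes with groups that did not overlap, at 20.1, 17.8 and 19.4 CPM in WT, 14.7, 14.2 and 18.4 CPM in Het and 17.5, 13.6 and 13.6 CPM in Het CRISPRa. The highest Het CRISPRa library lay just under the lowest WT library (17.5 against 17.8 CPM), and Het overlapped both.

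Zbtb20, a zinc finger repressor gene that sets pyramidal cell identity in the hippocampus, was at 95.6, 109 and 135 CPM in WT, 49.1, 78.5 and 121 CPM in Het and 85.6, 74.4 and 63.2 CPM in Het CRISPRa. The Het CRISPRa libraries lay below all WT libraries and Het spread across both. Astrocytes make Zbtb20 as well. The summed level of 7 astrocyte genes was 21.9, 21.99 and 18.1 CPM in WT, 18.3, 17.5 and 19.2 CPM in Het and 20.0, 19.6 and 18.5 CPM in Het CRISPRa, with none of the 7 at 0 in any library. The sum, like Zbtb20, had its highest mean in WT, and its part in the Zbtb20 values was not tested.

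Wfs1, the gene of the endoplasmic reticulum protein wolframin, differed least between groups, with means of 42.4 ± 12.1 CPM in WT, 41.6 ± 8.71 CPM in Het and 42.2 ± 2.93 CPM in Het CRISPRa (SD, n = 3 each). Single libraries ran from 34.0 CPM in WT replicate 1 to 56.2 CPM in WT replicate 3, and the groups overlapped throughout.

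**Figure D1:**
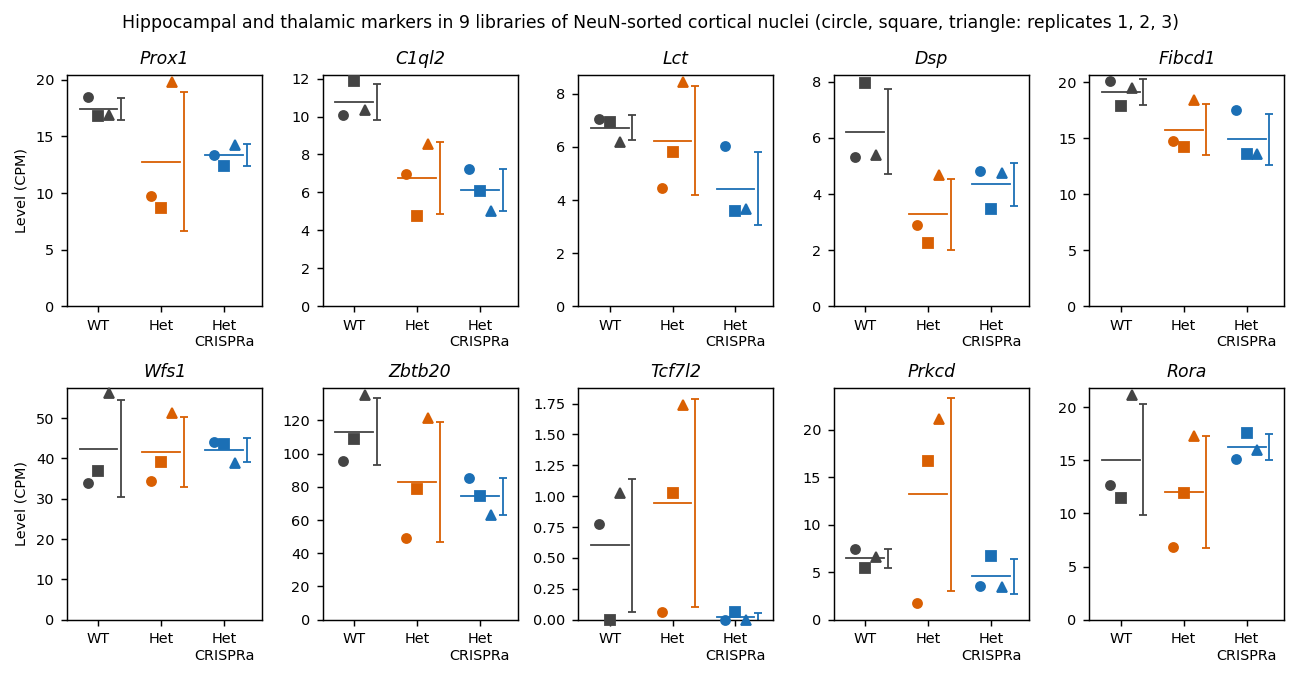
Level in CPM (y axis, linear from 0) of each of the 10 marker genes in WT, Het and Het CRISPRa (x axis); each point is a library, the horizontal line the group mean and the bar beside it the SD over 3 libraries, which the axis cuts off at 0. C1ql2 and Dsp in WT lie above all other libraries, while Prkcd and Tcf7l2 spread most within Het.

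Thalamic genes formed the last group. Prkcd, the gene of protein kinase C delta, made by thalamic relay neurons, was at 7.40, 5.42 and 6.63 CPM in WT, 1.78, 16.7 and 21.1 CPM in Het and 3.56, 6.70 and 3.46 CPM in Het CRISPRa. Het replicates 2 and 3 were the highest of all libraries and Het replicate 1 the lowest, a ratio of 11.9 between extremes with 30 to 425 reads behind the values. Its SD over the 9 libraries, 1.02 on the log2 scale, was larger than that of 99.4% of the genes tested.

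Tcf7l2, a Wnt pathway transcription factor gene that marks thalamic neurons, was at 0.775, 0 and 1.03 CPM in WT, 0.0593, 1.03 and 1.74 CPM in Het and 0, 0.0620 and 0 CPM in Het CRISPRa. The values fell into separate sets, with 4 libraries at 0.775 CPM or more and 5 libraries at 1 read or none. It reached 0.5 CPM in 4 libraries, all WT or Het, and passed the filter of at least 0.5 CPM in at least 3 libraries through them. The highest 2 libraries in Tcf7l2 and in Prkcd were the same, Het replicates 2 and 3, whereas WT replicates 1 and 3 had Tcf7l2 reads with Prkcd at the level of WT replicate 2.

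Oligodendrocytes are the other source of Tcf7l2 in brain. The sum of 7 oligodendrocyte genes was 97.4 to 121 CPM in WT, 98.7 to 116 CPM in Het and 96.8 to 105 CPM in Het CRISPRa, and that of 5 precursor genes was 1.85 to 4.70 CPM, 1.39 to 3.08 CPM and 1.0 to 2.7 CPM. In Het replicates 2 and 3 the myelin gene Mog was at 1.33 and 0.846 CPM, Mag at 1.45 and 0.0995 CPM and the precursor gene Pdgfra at 0.666 and 0.547 CPM. Enpp6, which marks the young cells, and Olig2 were listed at 0 in both, and Olig2 also in WT replicate 1. The part of these cells in the Tcf7l2 values was not tested. At 3 reads as the limit, a listed 0 in Het replicate 2 allows up to 0.182 CPM and in Het replicate 3 up to 0.149 CPM, for counting error only.

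Rora, a nuclear receptor gene of thalamic and cortical layer 4 neurons, was at 12.6, 11.5 and 21.1 CPM in WT, 6.82, 11.9 and 17.3 CPM in Het and 15.2, 17.5 and 15.9 CPM in Het CRISPRa. WT replicate 3 was highest and Het replicate 1 lowest, and the groups overlapped. Within Het the order of the libraries was the same as for Prkcd, and in Het CRISPRa both genes were highest in replicate 2.

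Other thalamic genes were read from a list of 10 (Slc17a6, Gbx2, Lef1, Shox2, Zic1, Rgs16, Tnnt1, Ntng1, Plekhg1 and Synpo2), of which 8 were tested. None passed the limma test in any comparison. The list's widest ranges were those of Zic1, a zinc finger transcription factor gene, and Plekhg1, a guanine nucleotide exchange factor gene. Zic1 was at 2.36 and 9.25 CPM in Het replicates 2 and 3 and at 0.178 CPM in Het replicate 1, with 0.557 to 2.32 CPM in WT and 0.402 to 1.0 CPM in Het CRISPRa. Plekhg1 was at 9.87 and 10.9 CPM in Het replicates 2 and 3, at 2.19 CPM in Het replicate 1, at 3.60 to 5.25 CPM in WT and at 2.90 to 3.62 CPM in Het CRISPRa. Shox2, named after its values were seen, was at 1.45 and 1.39 CPM in the same 2 Het libraries and at 0.298 CPM or less in the other 7. Lef1 also had its 2 highest values there, at 1.33 and 1.09 CPM. Not every thalamic gene did this, since the glutamate transporter gene Slc17a6 was at 12.0 and 12.9 CPM there and at 12.1 CPM in WT replicate 2. Ntng1 was at 65.8 and 72.5 CPM there and at 80.2 and 81.5 CPM in WT replicates 1 and 2. Rgs16, Tnnt1 and Synpo2 did not have their 2 highest values there either, and Gbx2 was listed at 0 in all 3 Het libraries.

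**Figure D2:**
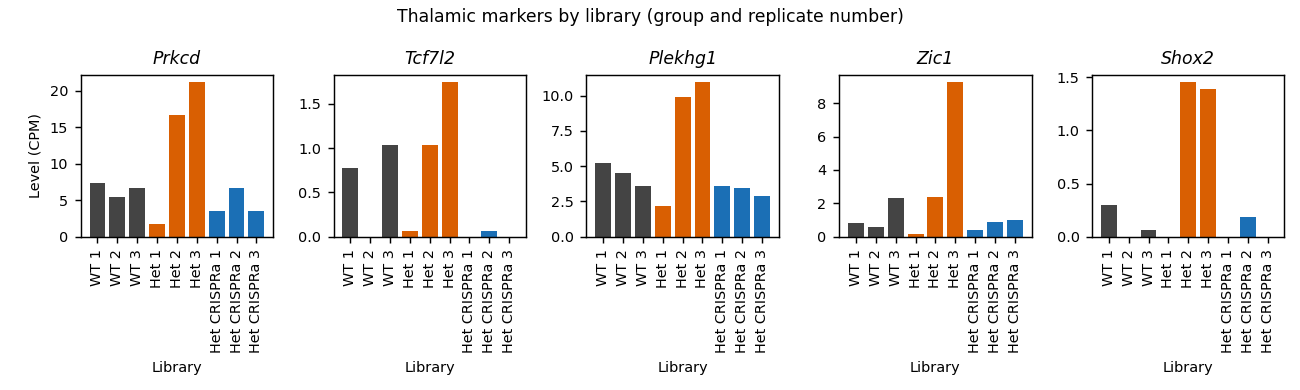
Level in CPM (y axis, linear from 0) of Prkcd, Tcf7l2, Plekhg1, Zic1 and Shox2 in each of the 9 libraries (x axis, group and replicate number). Het replicates 2 and 3 hold the 2 highest values of Prkcd (16.7 and 21.1 CPM), of Plekhg1 (9.87 and 10.9 CPM) and of Zic1 (2.36 and 9.25 CPM). For Zic1, WT replicate 3 was close at 2.32 CPM. Zic1 and Plekhg1 are shown for their wide ranges and Shox2 after its values were seen. Rora, Slc17a6, Gbx2, Ntng1, Rgs16, Tnnt1 and Synpo2, not shown, did not follow this pattern.

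The comparison of Het with WT asks whether losing an Scn2a copy went with a different content of hippocampal and thalamic transcripts. By limma 0 of the 10 markers passed the test, as did 0 of all 18967 genes (0%), with adjusted p-values of the markers between 0.875 and 0.996. At an unadjusted p under 0.05 there were 2 markers, C1ql2 and Dsp, against 5.01% of all genes, and both were among the 3.39% of genes lower in Het at that level. C1ql2 differed by -0.66 ± 0.22 (SE; ratio of means 0.630) and Dsp by -0.86 ± 0.27 (ratio 0.526). For both the groups did not overlap (exact two-sided permutation p = 0.1, the smallest for 3 against 3). Over all genes 7.3% were so separated and lower in Het and 3.37% higher, a split that was 5.06% and 5.3% under median-of-ratios scaling, where C1ql2 and Dsp were separated as well.

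The other hippocampal genes had values of -0.53 for Prox1, -0.28 for Fibcd1, -0.14 for Lct, -0.53 for Zbtb20 and -0.01 for Wfs1. The thalamic genes gave 0.45 ± 0.63 for Prkcd, 0.32 ± 0.51 for Tcf7l2 and -0.36 ± 0.29 for Rora. In total 8 of 10 markers lay below 0, where 60.3% of all genes did, with a median of -0.32 against -0.05 over all genes tested. Without Het replicate 1, Prkcd was at 1.47 and Zbtb20 at -0.20, and without Het replicate 3 Prkcd was at -0.15.

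The comparison of Het CRISPRa with WT gave the most separation. By limma 0 of 10 markers passed and 1 of all genes did (0.00527%), with an adjusted p of 0.99999 for each marker to 5 digits. At an unadjusted p under 0.05 there were 4 markers, all lower in Het CRISPRa (C1ql2, Fibcd1, Lct and Zbtb20), against 1.77% of all genes, with 1.33% lower. In 6 of 10 markers every Het CRISPRa library lay below every WT library, where this held for 4.46% of all genes and the opposite for 2.68%. Under quantile scaling Dsp overlapped, and the shares of all genes were 3.3% and 3.52%. They were the 4 dentate genes Prox1, C1ql2, Lct and Dsp and the pyramidal cell genes Fibcd1 and Zbtb20, each with an exact two-sided permutation p = 0.1, the smallest possible.

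The sizes were -0.78 ± 0.22 for C1ql2 (ratio of means 0.568), -0.60 ± 0.25 for Zbtb20 (0.657), -0.58 ± 0.26 for Lct (0.660), -0.46 ± 0.27 for Dsp (0.698), -0.37 ± 0.24 for Prox1 (0.767) and -0.36 ± 0.16 for Fibcd1 (0.779). Wfs1 (0.03 ± 0.19) and Rora (0.15 ± 0.29) had values above 0, Prkcd had -0.51 ± 0.63 and Tcf7l2 had -0.93 ± 0.51, the largest estimate of the 10, from 1 read in Het CRISPRa and 29 in WT. Tcf7l2 had passed the filter through WT and Het libraries only, so its value is a description. Below 0 were 8 of 10 markers and 54.7% of all genes, and the median of the 10 was -0.49 against -0.02 over all genes. In the authors' deposited table Zbtb20 had the smallest adjusted p of the 10 in this comparison, 0.110 with a log2 fold change of -0.59, followed by C1ql2 (0.522, -0.80), and 0 of 10 passed where 10 of all its genes did.

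**Figure D3:**
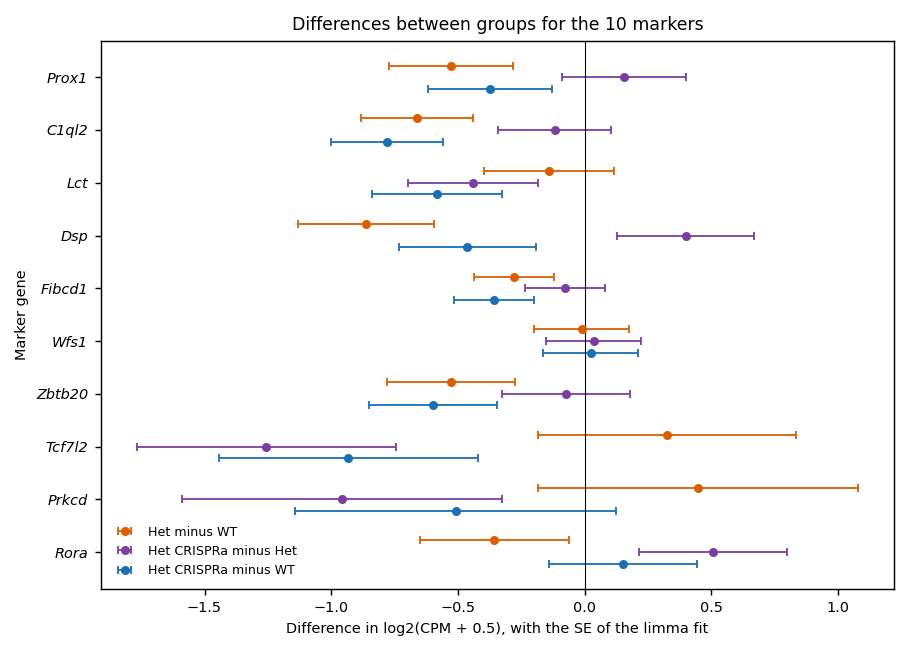
Difference in log2(CPM + 0.5) between groups (x axis) for each marker gene (y axis); points are limma estimates and bars their SE. C1ql2, Zbtb20, Prox1, Fibcd1, Lct and Dsp lie below 0 in both comparisons with WT, and the thalamic genes Tcf7l2 and Prkcd have the widest bars.

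Het CRISPRa and Het, which share the genotype, were compared to see whether the injected group differed in the markers. By limma 0 of 10 markers and 8 of all genes passed (0.0422%), and adjusted p-values of the markers were 0.810 to 0.968. At an unadjusted p under 0.05 there was 1 marker, Tcf7l2, against 5.25% of all genes, with 2.53% lower. That gene had passed the filter through WT and Het libraries only. Its count is therefore a description and cannot be weighed against these shares. In 0 of 10 markers did the groups separate, against 4.61% of all genes lower and 5.37% higher in Het CRISPRa. The dentate genes gave 0.16 for Prox1, -0.12 for C1ql2, -0.44 for Lct and 0.40 for Dsp, and the pyramidal genes -0.08 for Fibcd1, -0.07 for Zbtb20 and 0.04 for Wfs1. Rora had 0.51 ± 0.29. Below 0 were 6 of 10 markers and 43.2% of all genes.

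The thalamic genes Prkcd and Tcf7l2 had lower means in Het CRISPRa than in Het without passing the test. Prkcd was at 4.57 ± 1.84 CPM against 13.2 ± 10.1 CPM in Het (SD, n = 3 each), a difference of -0.96 ± 0.63 (adjusted p = 0.810). Without Het replicate 1 it was -1.98 and passed by limma (adjusted p = 0.0331), 1 of the 10 markers and 1 of 5 among all genes in that fit, and without Het replicate 3 it was -0.36. Over the 16 alternatives its adjusted p was 0.0331 at the lowest, and this was the only marker and alternative that passed. For Tcf7l2 there was 1 read in the Het CRISPRa libraries together and 53 in Het, a ratio of 0.0196 with an exact 95% interval of 0.000487 to 0.114 for counting error only, and of these 53 reads Het replicate 1 held 1. The ratio is a description too, since Tcf7l2 had passed the filter through WT and Het libraries only. The authors' deposited table gave Tcf7l2 an adjusted p of 0.146, the smallest of the 10 in this comparison. The 3 comparisons share their libraries in pairs, and their values are not separate evidence of each other.

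Because C1ql2 and Dsp separated WT from both other groups, the 6 Scn2a+/- libraries were also set against the 3 WT libraries, a contrast chosen after the values were seen. C1ql2 was at 6.44 ± 1.437 CPM in the 6 and 10.8 ± 0.956 CPM in the 3, a difference of -0.72 ± 0.19, and Dsp at 3.81 ± 1.10 against 6.22 ± 1.5 CPM, -0.66 ± 0.23. Since that separation prompted the contrast, these values are a description and no permutation p is given. No marker passed limma in this contrast (0 of 10, with 0% of all genes, adjusted p = 0.999). The 2 of 10 markers that did not overlap were the pair that prompted the contrast, so their count was fixed in advance. Over all genes 1.39% were so separated and lower and 0.438% higher, and the count of 2 cannot be weighed against these shares. At an unadjusted p under 0.05 there were 4 markers (C1ql2, Dsp, Fibcd1 and Zbtb20), all lower, where 2.39% of all genes were, with 1.8% lower. This count includes the pair that prompted the contrast and is a description as well. Below 0 were 9 of 10 markers and 59.6% of all genes. Under quantile scaling C1ql2 alone of the pair stayed separated.

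Group means of most hippocampal markers followed the same division. WT had the highest mean in 7 of 10 markers, all 7 hippocampal ones, Het the highest in Prkcd and Tcf7l2, and Het CRISPRa in Rora. For Wfs1 this order is not a difference. Its means were 42.4, 41.6 and 42.2 CPM in WT, Het and Het CRISPRa, and its Het CRISPRa minus WT value was 0.03 on the log2 scale. How often WT had the highest mean over all genes was not computed. Het CRISPRa had the lowest mean in 6 markers and Het in 4. For Prox1, C1ql2, Fibcd1, Lct, Zbtb20 and Dsp the order between Het and Het CRISPRa was within the spread of their libraries, which overlapped.

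Further hippocampal genes were read from lists to see how far this went. None of 8 further dentate genes (Tdo2, Plk5, Trpc6, Glis3, Stxbp6, C1ql3, Dock10 and Cdh9), 6 CA1 genes (Spink8, Pou3f1, Man1a, Neurod6, Mpped1 and Nr3c2) or 8 CA2 and CA3 genes (Grik4, Iyd, Bok, Rgs14, Map3k15, Amigo2, Cpne4 and Necab2) passed limma in any of the comparisons. Against WT, 7 of the 8 dentate genes lay below 0 in Het with a median of -0.24, and 5 of 8 in Het CRISPRa with a median of -0.08. For the CA1 list it was 5 of 6 in Het (median -0.18) and 4 of 6 in Het CRISPRa (-0.21), and for the CA2 and CA3 list 5 of 8 (-0.13) and 6 of 8 (-0.17). Of all genes 60.3% lay below 0 in Het and 54.7% in Het CRISPRa. Mean summed levels in WT, Het and Het CRISPRa were 281, 263 and 274 CPM for the further dentate list. They were 326, 335 and 346 CPM for the CA1 list and 224, 222 and 211 CPM for the CA2 and CA3 list. Most of the CA1 sum came from Mpped1, at 198 to 266 CPM. The order of the CA1 sums is therefore not that of most genes of the list, which lay below 0.

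Among them, Iyd, which encodes an enzyme that recovers iodide, was at 1.85, 1.62 and 1.42 CPM in WT, 0.771, 0.606 and 0.746 CPM in Het and 0.977, 1.12 and 1.39 CPM in Het CRISPRa, all of the latter 2 groups below WT. Spink8, a hippocampal protease inhibitor gene, was at 0.716, 1.52 and 0.708 CPM in WT and 0 to 0.620 CPM in the other 6. Dock10, a Cdc42 and Rac exchange factor gene, ran from 14.0 CPM in Het replicate 1, the lowest library in Zbtb20, to 54.0 CPM in Het replicate 3, the highest in Prox1. Grik4 and Trpc6 were highest in Het replicate 1, at 75.2 and 79.7 CPM, where all 10 markers were below their medians.

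**Figure D4:**
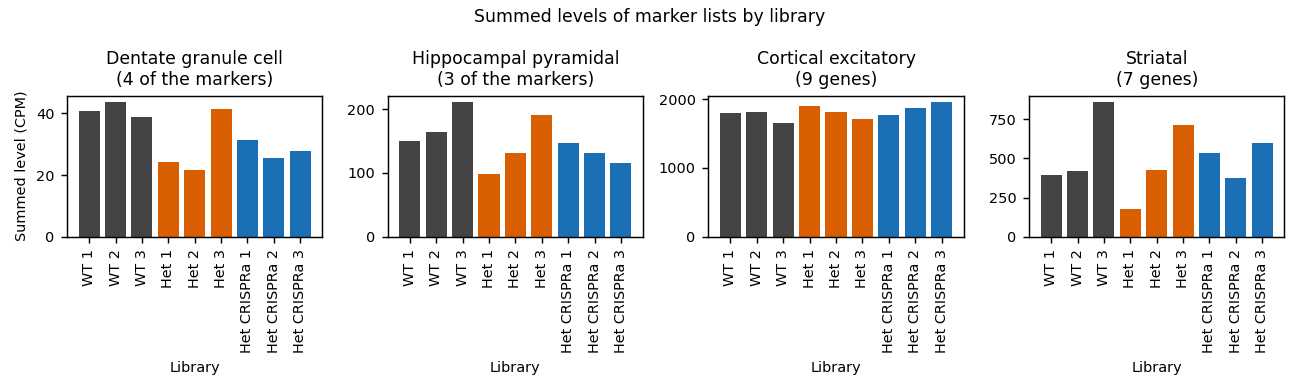
Summed level in CPM (y axes, linear from 0) of 4 dentate and 3 pyramidal markers and of lists of 9 cortical excitatory and 7 striatal genes in each of the 9 libraries (x axes). The dentate sum is 38.9 CPM or more in WT and in Het replicate 3 and 31.5 CPM or less in the other 5 libraries. The sum of the cortical excitatory list, which is not a measure of cortex alone, stays between 1647 and 1952 CPM.

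Summed levels place the markers beside the rest of the dissection. The 4 dentate markers summed to 40.9, 43.6 and 38.9 CPM in WT, 24.1, 21.6 and 41.5 CPM in Het and 31.5, 25.5 and 27.7 CPM in Het CRISPRa, so that Het replicate 3 lay with WT. The 9 cortical excitatory genes summed to 1647 to 1952 CPM, most of it from Slc17a7, Cux2 and Rbfox3. Slc17a7 and Rbfox3 are not limited to cortex, so the sum is not a measure of cortex alone. Single genes of that list ranged as widely as some markers, with a log2 range over the 9 libraries of 1.41 for Foxp2 and 1.19 for Emx1 against 1.14 for Prox1 and 1.23 for C1ql2. The 7 striatal genes, the dopamine receptor genes Drd1 and Drd2 among them, summed to 177 CPM in Het replicate 1, 711 CPM in Het replicate 3 and 859 CPM in WT replicate 3, with 373 to 599.7 CPM in the other 6. WT replicate 3 was also the highest library in Zbtb20, Wfs1 and Rora, which striatal neurons or cortical neurons can make, and the part of striatal nuclei in those values was not tested. Of the choroid plexus genes, Ttr was listed at 0 in WT replicate 2 and Het replicate 1 and was highest in Het replicate 3 at 4.13 CPM.

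The markers were then compared with each other across the 9 libraries, which share their groups, in 45 pairs. Pearson's r was above 0 in 43 pairs, and 0 pairs passed Benjamini-Hochberg adjustment by exact permutation test, with 12 pairs at an unadjusted p under 0.05. C1ql2 and Fibcd1 had r = 0.87 and rho = 0.82 (exact permutation p = 0.00456 and 0.0108; adjusted 0.0583 and 0.0963), and r = 0.94 without the 2 libraries farthest from the median of C1ql2. Fibcd1 and Lct had r = 0.84 and rho = 0.90 (exact permutation p = 0.00519 and 0.00203; adjusted 0.0583 and 0.0913), with r = 0.67 without the 2 libraries. Prox1 and Dsp had r = 0.84 and rho = 0.67 (exact permutation p = 0.00449 and 0.0589; adjusted 0.0583 and 0.189), and r = 0.49 without Het replicates 1 and 2, so that this relation rests on those libraries. Wfs1 and Rora had r = 0.80 and rho = 0.77 (exact permutation p = 0.00835 and 0.0214; adjusted 0.0751 and 0.0963), with r = 0.72 without the 2 libraries. No r is given for Tcf7l2, whose values fell into separate sets.

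With the group means subtracted, so that only the spread within groups counts, 0 of 45 pairs passed and 4 had an unadjusted p under 0.05. Of the pairs without Tcf7l2, Zbtb20 and Wfs1 had r = 0.83 there (exact permutation p = 0.00463, the smallest possible; adjusted 0.208), Wfs1 and Rora 0.88 (exact permutation p = 0.0370; adjusted 0.417) and Prkcd and Rora 0.79 (exact permutation p = 0.0278; adjusted 0.417). Over the 9 libraries Prkcd and Rora had r = 0.43 and rho = 0.32 (exact permutation p = 0.243 and 0.410; adjusted 0.420 and 0.614), with r = -0.32 without Het replicates 1 and 3. Within groups C1ql2 and Fibcd1 had r = 0.69 (exact permutation p = 0.194; adjusted 0.551) and Fibcd1 and Lct 0.86 (exact permutation p = 0.0787; adjusted 0.463).

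Genes with the most similar pattern were sought for each marker among 12201 genes of at least 2 CPM on average, by Pearson's r across the 9 libraries, as a description. For Prkcd they were Plekhg1 (0.95), Lcmt2 (0.92) and Osbpl3 (0.91), of which Plekhg1 was on the thalamic list. For C1ql2 they were Ccdc74a (0.97), Gabrb2 (0.93) and Atp6v0e (0.92), for Dsp Bola3 (0.95), Sv2a (0.94) and Lamp1 (0.93), and for Prox1 they included Dock11 (0.95) and Micall1 (0.94). For Lct they were Bambi (0.96), Cachd1 (0.96) and Fam136a (0.94), for Fibcd1 Timp3 (0.95), Fam177a2 (0.93) and Gpr12 (0.92), and for Zbtb20 Amotl1 (0.96), Nrsn2 (0.95) and Pebp1 (0.95). Fam177a2 was listed at 0 in Het replicates 1 and 2 and in Het CRISPRa replicates 2 and 3. It was at 8.42 to 29.5 CPM in the other libraries, so its r rests on separate sets of values. Wfs1 went with Klhdc10 (0.97), Pcdhb7 (0.97) and Ctdspl2 (0.96), and Rora with Strn3 (0.99), Gpr137c (0.98) and Naa25 (0.98). For Tcf7l2 the nearest were Zfp362, Inf2 and Pals2. None of the 3 nearest genes of any marker was another of the 10 markers.

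The spread of the markers over the 9 libraries was wide for some and ordinary for others. The SD of log2(CPM + 0.5) was above that of 99.1% of tested genes for Tcf7l2, 88.9% for Dsp, 86.9% for Zbtb20, 86.7% for Rora, 84.2% for C1ql2, 78.5% for Prox1 and 78.3% for Lct. It was near the middle of all genes for Wfs1 (49.8%) and Fibcd1 (43.2%). Low counts add to the SD of low genes such as Tcf7l2.

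Levels in the 12 libraries of Neuro2a, a mouse neuroblastoma line sequenced in the same series and normalized in its own table, were read for 7 of the markers. Fibcd1, Lct and Dsp were at 0.121 CPM or less in all 12. Zbtb20 was at 61.8 to 103 CPM, Wfs1 at 32.7 to 64.3 CPM, Tcf7l2 at 16.7 to 35.9 CPM and Prkcd at 72.5 to 115 CPM. Prkcd and Tcf7l2 were thus detected in every Neuro2a library. Prox1, C1ql2 and Rora were not analysed in Neuro2a here.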

How the data were processed

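Levels came from the mouse table, whose deposited values are CPM and sum to 1e+06 in each library. The authors' DESeq2 tables give, per the file headers, a log2 fold change, its standard error, a p-value and an adjusted p-value. Per the submitters' processing notes, STAR 2.7.8a, featureCounts, DESeq2 1.44 and R 4.4 were used with mm39 and GRCm39, with no role or order given; the annotation release, the strand setting and the handling of multiply aligned reads are not given in the sources used here. The most frequent CPM above 0 was taken as 1 read, which gave the depth of 15.5 to 20.1 M reads. At that scale 79.9 to 82.4% of nonzero values came out whole (tolerance 0.01), so that count models across genes were not run. The read counts of Tcf7l2 came out whole and were compared directly, for counting error only. The limits taken from 3 reads cover counting error only.

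Groups were compared by limma 3.58.1 (lmFit, then eBayes with trend; R 4.3.3) on log2(CPM + 0.5), keeping genes that reached 0.5 CPM in 3 or more of the 9 libraries, all groups in one fit, with 0.05 as the threshold for the adjusted p. Transgene features were left out. The fit was tested on simulated data. Permutation tests, correlations and plots were made with scipy 1.17.1, matplotlib 3.10.9, numpy 2.4.6 and pandas 2.3.3 under Python 3.11.15. Where the authors' sign was WT against Het it was turned. Members, lists and tests were chosen with earlier results of these data known. The text names all 10 members, the 3 genes most similar to each (at least 2 CPM on average, no predicted or clone names; 1 of those of Prox1 is not reported here), up to 2 genes per further list with the widest range, and others said to be named after their values were seen. Of 14 further lists, those that bear on a member are given. Alternatives were other pseudocounts (0.1 and 1), no filter, median-of-ratios and quantile scaling, a replicate block, fits of 2 groups and leaving out each library. The promoter windows are from RefSeq on GRCm38.p6, another build than the one the tables use, and all 10 members matched by symbol.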

Additional observations from a re-analysis of the deposited data

How the results depend on the processing

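Of 40 differences (10 markers in 4 contrasts), 25 kept their sign under every alternative, and 1 alternative gave a marker past the threshold. In Het minus WT the values ran over the left-out libraries from -0.37 to 0.061 for Lct, -0.17 to 0.21 for Wfs1, -0.17 to 0.90 for Tcf7l2 and -0.15 to 1.47 for Prkcd, and Wfs1 was 0.04 under both median-of-ratios (0.0401) and quantile scaling (0.0394). In Het CRISPRa minus Het they ran from -0.059 to 0.51 for Prox1, -0.33 to 0.057 for C1ql2, -0.20 to 0.034 for Fibcd1, -0.40 to 0.25 for Zbtb20 and -0.088 to 0.20 for Wfs1. In Het CRISPRa minus WT they ran from -0.11 to 0.24 for Wfs1 and -0.014 to 0.41 for Rora. In Scn2a+/- minus WT they ran from -0.13 to 0.23 for Wfs1, -0.80 to 0.0091 for Tcf7l2, -0.33 to 0.48 for Prkcd and -0.27 to 0.16 for Rora, and Prkcd was 0.0011 with a pseudocount of 1, 0.0022 with median-of-ratios and 0.0395 with quantile scaling. The cause of these turns was not tested.

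Of all genes tested, those past the threshold numbered 0 in Het minus WT, 2 with the replicate block and 0 to 1 over left-out libraries. In Het CRISPRa minus Het they were 8, 2 with no filter, 31 with the replicate block and 0 to 38 over left-out libraries, and the markers among them 0 to 1. In Het CRISPRa minus WT they were 1, 0 with a pseudocount of 0.1, 0 with the replicate block and 0 to 3 over left-out libraries, and in Scn2a+/- minus WT 0 to 1. Marker pairs past the threshold in correlation were 0, and 0 to 2 over left-out libraries (2 without WT replicate 2). With scalings chosen after the data were seen, separated and lower markers were 1 (Tcf7l2) in Het CRISPRa minus Het under both scalings, and 1 in Scn2a+/- minus WT under quantile scaling. For Tcf7l2 this turned on 1 read in Het replicate 1 (0.0593 CPM) and 1 read in Het CRISPRa replicate 2 (0.0620 CPM). It is therefore not read as a separation of the groups. Of all genes, 5.05% and 5.19% were separated and lower in that comparison under median-of-ratios and quantile scaling. Libraries with the same replicate number correlated at -0.110 to 0.418 in their deviations from the group means (3 of 9 pairs above 0.1). The highest value was that of WT replicate 3 with Het replicate 3. A library matched its own number best in 6 of 18 cases. The number was not taken as a pairing, and whether libraries shared a batch or a day was not tested. No marker passed with the replicate block. Depth limits Tcf7l2 most, at 35 reads or fewer per library.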
